A study of Sus scrofa with 12 samples.

Results

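The genes MYBL1, TCFL5, RFX2, SOX30, CREM, TAF7L and BRDT encode transcription and chromatin regulators that act in male germ cells during meiosis and in spermatids. They were chosen by name, as the coding genes whose symbol in the deposited table is on this list, and all 7 were found among 21674 coding genes, of which 20853 carry a symbol. During male meiosis, spermatocytes switch on a large set of genes that are used only after the divisions, and spermatids later stop transcription as their chromatin is packed with protamines. This programme runs through a small number of germ cell regulators, several of which are relatives of widely expressed factors. MYBL1 and TCFL5 act in pachytene spermatocytes, RFX2, SOX30 and CREM activate spermatid genes, and TAF7L and BRDT belong to the general transcription and chromatin machinery.

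The study compared testes of Hezuo (HZ) and Landrace (LC) boars at 30 and 120 days of age. There were 3 libraries in each of 4 groups: Ha (HZ, 30 days), Hb (HZ, 120 days), La (LC, 30 days) and Lb (LC, 120 days). The testes came from castration, and rearing conditions were natural and did not differ between the breeds. Whole testis RNA was depleted of ribosomal RNA and made into strand-specific libraries, so each value is an average over all cell types of the organ, and p-values reflect the spread between the libraries of different boars. The estimated counts of coding genes came to a total of 22538417 to 23758931 per library in Ha (median 23490893) and 17165519 to 22707568 in Hb (median 20678367). For LC, the La libraries had totals of 18523274 to 23563949 with a median of 22233155. The Lb libraries had 18998959 to 23253496, and their median was 22951618. The estimated counts of the 7 regulators lay between 22 and 11734 per library, so none was near the floor of 3 counts used below.

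The genes lie on 6 chromosomes of the pig assembly Sscrofa11.1, by the RefSeq gene spans. MYBL1 spans positions 68120078 to 68159513 of chromosome 4 and BRDT spans 125004897 to 125062208 of the same chromosome. TCFL5 lies at 62093906 to 62115669 of chromosome 17, RFX2 at 72949859 to 73051184 of chromosome 2, and SOX30 at 65642107 to 65677693 of chromosome 16. CREM lies at 57829523 to 57895610 of chromosome 10 and has 27 RefSeq transcripts. TAF7L, at 82930258 to 82951065, is the member on the X chromosome. The deposited coding table has 1 value per gene, so activator and repressor forms of CREM were not separated.

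Levels are given first as FPKM, fragments scaled to the length of the transcript and to sequencing depth, which allows comparison between genes. Changes between groups come from the estimated counts, as log2 fold changes of edgeR's quasi-likelihood test with a standard error (SE), and p-values were adjusted over all genes tested by the Benjamini-Hochberg method. A gene was called at an adjusted p under 0.05 together with an absolute log2 fold change over 1. Fewer cells of a type and less RNA per cell cannot be told apart in whole testis.

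MYBL1, also known as A-MYB, is the MYB family activator of pachytene genes and of piRNA precursors. Its 3 libraries of Ha stood at 1.72, 1.65 and 1.39 FPKM (1.59 ± 0.174, SD, n = 3), and those of Hb at 11.74, 9.68 and 10.94 FPKM (10.8 ± 1.04, SD, n = 3). In LC, La stood at 1.42, 1.35 and 1.63 FPKM (1.47 ± 0.146, SD, n = 3) and Lb at 9.37, 7.01 and 9.55 FPKM (8.64 ± 1.42, SD, n = 3). Every library of 120 days was above every library of 30 days, and Lb2 was the lowest of the older ones. The log2 fold change of MYBL1 with age was 3.25 (SE 0.18, adjusted p 8.62e-06) in HZ, a fold of 9.5. In LC it was 2.83 (SE 0.16, adjusted p 1.43e-06), a fold of 7.12.

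TCFL5 is a basic helix-loop-helix factor of spermatocytes that acts with MYBL1. It stood at 7.34, 6.68 and 5.82 FPKM in Ha (6.61 ± 0.762, SD, n = 3) and at 67.04, 58.75 and 62.65 FPKM in Hb (62.8 ± 4.15, SD, n = 3). In La it stood at 4.59, 4.56 and 4.73 FPKM (4.63 ± 0.0907, SD, n = 3) and in Lb at 49.90, 52.34 and 45.27 FPKM (49.2 ± 3.59, SD, n = 3). The ages did not overlap in either breed, and the La libraries were the most alike of the 4 groups. Its log2 fold change with age was 3.70 (SE 0.17, adjusted p 3.72e-06) in HZ. LC gave 3.57 (SE 0.13, adjusted p 1.15e-07).

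RFX2 is a winged-helix factor that activates cilium and spermatid genes. Its FPKM values were 2.41, 2.39 and 2.2 in Ha (2.33 ± 0.116, SD, n = 3) and 112.47, 69.52 and 115.23 in Hb (99.1 ± 25.6, SD, n = 3). They were 1.44, 1.73 and 1.22 in La (1.46 ± 0.256, SD, n = 3) and 90.00, 91.68 and 67.53 in Lb (83.1 ± 13.5, SD, n = 3). Hb2 and Lb3 stood apart below the others of their groups, yet both were far above all 6 libraries of 30 days. RFX2 had the largest log2 fold change of the 7 genes in both breeds, 5.95 (SE 0.29, adjusted p 5.23e-06) in HZ, a fold of 61.7. In LC it was 6.18 (SE 0.23, adjusted p 1.53e-07), a fold of 72.3.

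SOX30 is a SOX family factor that begins to act in late spermatocytes and is needed for spermatid genes. Its FPKM values in Ha were 0.38, 0.48 and 0.54 (0.467 ± 0.0808, SD, n = 3), against 15.22, 13.29 and 13.65 in Hb (14.1 ± 1.03, SD, n = 3). In La they were 0.30, 0.29 and 0.37 (0.32 ± 0.0436, SD, n = 3), against 9.86, 12.05 and 12.81 in Lb (11.6 ± 1.53, SD, n = 3). The ages were far apart in both breeds, and its counts of 22 to 46 per library at 30 days were the lowest of the 7 genes. The log2 fold change of SOX30 was 5.46 (SE 0.18, adjusted p 1.73e-06) in HZ. It was 5.54 in LC (SE 0.20, adjusted p 1.41e-07).

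CREM is a cAMP response element factor whose activator form drives protamine and other late genes in spermatids. Its libraries of Ha stood at 5.86, 6.61 and 6.15 FPKM (6.21 ± 0.378, SD, n = 3) and those of Hb at 46.31, 40.47 and 40.21 FPKM (42.3 ± 3.45, SD, n = 3). Those of La stood at 4.41, 5.18 and 6.06 FPKM (5.22 ± 0.826, SD, n = 3) and those of Lb at 33.73, 35.60 and 39.59 FPKM (36.3 ± 2.99, SD, n = 3). Both breeds had all 3 older libraries above all 3 younger ones. The log2 fold change of CREM was 3.38 (SE 0.16, adjusted p 4.34e-06) in HZ. LC gave 3.28 (SE 0.13, adjusted p 1.67e-07).

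BRDT is the testis member of the BET proteins, which bind acetylated histones. It stood at 2.09, 2.42 and 2.29 FPKM in Ha (2.27 ± 0.166, SD, n = 3) and at 69.03, 73.56 and 88.35 FPKM in Hb (77.0 ± 10.1, SD, n = 3). In LC it stood at 1.41, 1.47 and 2.09 FPKM in La (1.66 ± 0.376, SD, n = 3) and at 54.70, 53.23 and 55.85 FPKM in Lb (54.6 ± 1.31, SD, n = 3). No library of 30 days came near those of 120 days. The log2 fold change of BRDT was 5.57 (SE 0.17, adjusted p 1.67e-06) in HZ. In LC it was 5.37 (SE 0.18, adjusted p 8.73e-08).

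TAF7L is a germ cell counterpart of the TFIID subunit TAF7. Its FPKM values were 24.12, 20 and 27.34 in Ha (23.8 ± 3.68, SD, n = 3) and 14.90, 24.35 and 16.17 in Hb (18.5 ± 5.13, SD, n = 3). They were 16.63, 11.21 and 14.43 in La (14.1 ± 2.73, SD, n = 3) and 13.91, 12.78 and 15.06 in Lb (13.9 ± 1.14, SD, n = 3). The ages overlapped in both breeds, and Hb2 was the highest library of its group. The log2 fold change of TAF7L was 0.10 in HZ (95% interval -0.33 to 0.54, adjusted p 0.638), and in LC it was 0.30 (95% interval -0.06 to 0.67, adjusted p 0.119). Both intervals lay within a log2 change of 1, and over 15 alternatives the adjusted p ran from 0.142 to 0.917 in HZ and from 0.0455 to 0.991 in LC. The sign of this small difference changed in HZ with the scaling and with the library left out, from -0.39 to 0.22 over the alternatives, and in LC it came to -0.0032 with limma on log2(FPKM + 1).

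**Figure D1:**
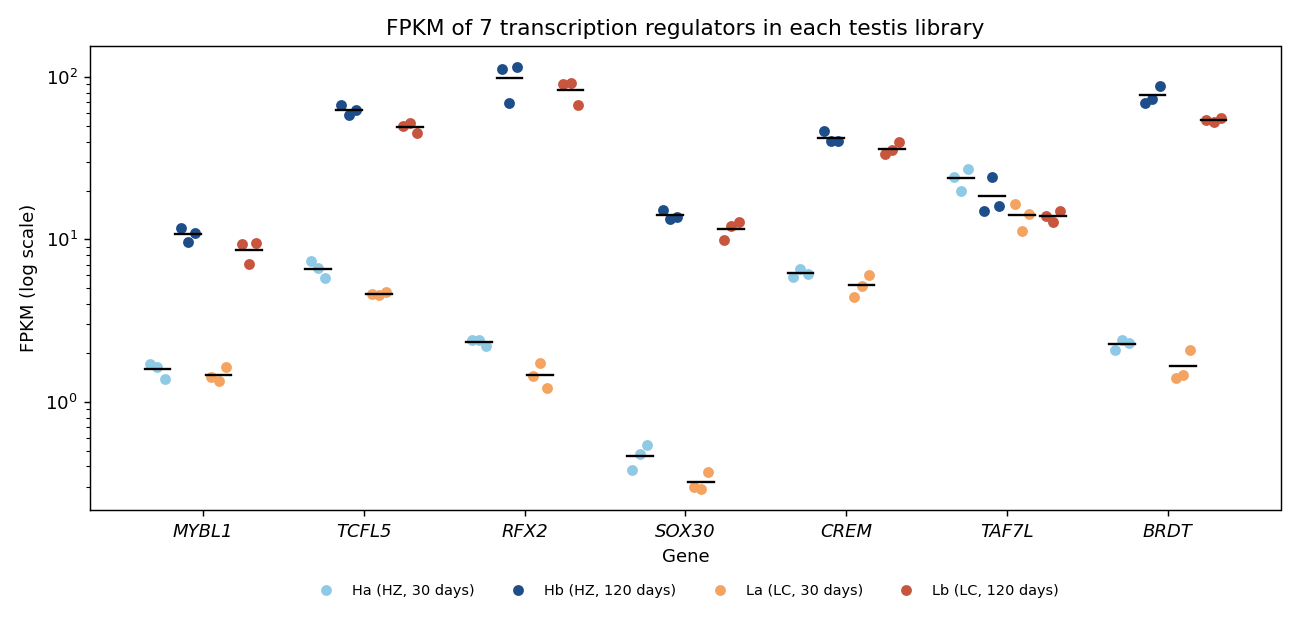
FPKM on a log axis of each of the 7 genes in each of the 12 testis libraries (points) with group means (lines), by breed and age. All except TAF7L stood higher at 120 days in every library, and TAF7L stood between 11.21 and 27.34 FPKM in all 4 groups.

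The comparisons of the ages (Ha vs Hb and La vs Lb) ask how the testis changes between 30 and 120 days within each breed. Of the 7 regulators, 6 were called higher at 120 days in HZ, where 28.2% of the 16548 genes tested were called higher and 23.2% lower. The same number, 6 of 7, was called higher in LC, where 27.5% of 16637 genes were called higher and 20.1% lower. TAF7L was the exception in both breeds, and no regulator was called lower. The median log2 fold change of the 7 genes was 3.70 in HZ and 3.57 in LC, against -0.02 and 0.01 over all genes tested. These 6 genes were called in both breeds under every one of the 15 alternatives run for each comparison. The scaling matters for the genes as a whole. With library sizes alone the median of all genes moved to -0.32 in HZ and -0.16 in LC, and with limma on log2(FPKM + 0.1) to -0.47 and -0.27. The split of all genes called higher and lower then changed from 4666 and 3844 to 3978 and 5039 in HZ with library sizes alone, and to 3586 and 5718 with limma on log2(FPKM + 0.1). With limma on log2(FPKM + 1) it was 2808 and 3831 in HZ. In LC it changed from 4574 and 3352 to 3796 and 4424 with limma on log2(FPKM + 0.1). The lowest log2 fold change that any alternative gave for 1 of the 6 called genes was 1.96, for MYBL1 in LC.

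**Figure D2:**
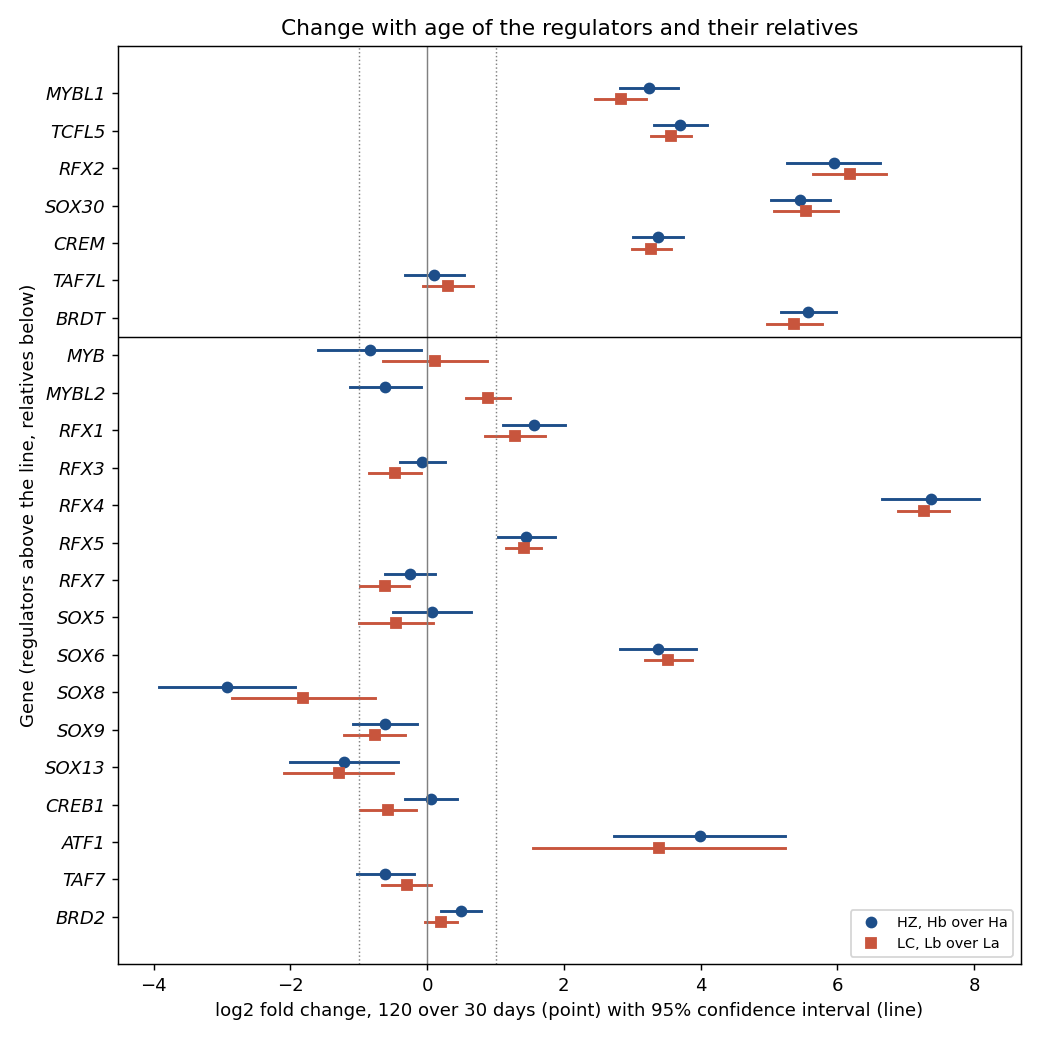
Log2 fold change from 30 to 120 days (points) with its 95% confidence interval (lines), in HZ (circles) and LC (squares). Shown are the 7 regulators and 16 of the 17 family relatives tested with age. Dotted lines mark a change of 1 in either direction. Apart from TAF7L, the regulators lay between 2.83 and 6.18, and RFX4 had the largest change of the relatives, 7.37 in HZ and 7.27 in LC.

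The rise changed the order of the genes by FPKM. In Ha, TAF7L led, followed by TCFL5 and CREM, whose libraries overlapped, then RFX2 and BRDT, which also overlapped, then MYBL1 and SOX30. In La, TAF7L again led, CREM and TCFL5 overlapped, BRDT, MYBL1 and RFX2 followed with overlap from each to the next, and SOX30 was last. In Hb, RFX2 and BRDT led and overlapped, TCFL5 and CREM followed, TAF7L and SOX30 overlapped, and MYBL1 was last. The order in Lb was that of Hb, with RFX2 separate from BRDT. By mean FPKM, RFX2 stood at percentile 53.0 of all coding genes in Ha and 97.7 in Hb, and BRDT at 52.7 and 96.9. SOX30 stood at percentile 34.8 in La and 78.5 in Lb. MYBL1 was the gene with the lowest level of the 7 at 120 days in both breeds, at percentile 78.8 in Hb and 73.9 in Lb.

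Since TAF7L is X-linked, the chromosomes were set side by side, a breakdown chosen after the values were seen. In HZ, 14.8% of 601 X-linked genes tested were called higher at 120 days and 37.6% lower, against 26.1% and 23.5% of 14883 autosomal genes. The median log2 fold change was -0.78 on the X chromosome and -0.06 on the autosomes. In LC, 20.2% of 614 X-linked genes were called higher and 30.1% lower, against 25.0% and 20.5% of 14947 autosomal genes, with medians of -0.50 and -0.03. TAF7L therefore lay above the X-linked median in both breeds. The chromosomes were not compared under the other scalings.

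The comparisons of the breeds (Ha vs La and Hb vs Lb) ask how LC differs from HZ at the same age. They share their libraries with the comparisons of the ages, so the values are given side by side. At 30 days edgeR called 0 of the 7 regulators, where 7.62% of 15648 genes were called and 4.01% were called lower in LC. At 120 days it called 0 of 7, where 3.85% of 16311 genes were called and 1.2% were called lower in LC, and DESeq2 also called 0 at each age. The number of all genes called at 120 days, 628, depended on single libraries: it was 1029 without Hb2, 119 without Hb3, 182 without Lb1, 97 without Lb2 and 139 without Lb3. At an unadjusted p under 0.05 there were 3 of 7 at 30 days, against 36.4% of all genes, and 6 of 7 at 120 days, against 25.5%. An adjusted p under 0.05 at any fold was reached by 2 at 30 days, RFX2 and TAF7L, against 21.3% of all genes, and by 1 at 120 days, BRDT, against 5.47%. DESeq2 gave 2 at each age, and its own share of all genes is not given here, since the shares above are those of edgeR. In normalised counts, all 3 LC libraries lay below all 3 HZ libraries in 5 of 7 at 30 days, where 21.6% of all genes did so, and in 6 of 7 at 120 days, where 16.3% did. The fitted difference was below 0 in 7 of 7 at 30 days, against 49.8% of all genes, and in 7 of 7 at 120 days, against 49.7%. With 3 libraries a group, an exact permutation test of 1 gene cannot go below p = 0.1.

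At 30 days the difference of LC from HZ in log2 ran from -0.75 to -0.07, with a median of -0.44 against 0.00 over all genes. TAF7L had the largest, -0.75 (SE 0.17, adjusted p 0.0209), with 16.63, 11.21 and 14.43 FPKM in La below the 20 to 27.34 FPKM of Ha. Its adjusted p ranged from 0.000709 to 0.0734 over 15 alternatives and was under 0.05 in 12 of them. Without Ha1 it was 0.0619, without La2 0.0623 and without La3 0.0734. RFX2 was next, -0.65 (SE 0.19, adjusted p 0.0463), with all 3 La libraries below all 3 Ha libraries. Its adjusted p ranged from 0.0179 to 0.132 over 15 alternatives and was under 0.05 in 7. It was 0.13 without Ha1, 0.112 without Ha2, 0.0534 without Ha3, 0.113 without La1 and 0.132 without La3. It was also over 0.05 with all 12 libraries in 1 fit (0.127), with the replicate block (0.0695) and with no filter (0.0525). SOX30, TCFL5 and CREM were also lower in all 3 La libraries on the normalised count scale (in FPKM CREM overlapped), by log2 differences of -0.51 (SE 0.31, adjusted p 0.269), -0.36 (SE 0.13, adjusted p 0.079) and -0.31 (SE 0.14, adjusted p 0.139). The adjusted p of TCFL5 was under 0.05 in 3 of 15 alternatives (0.02 to 0.235). BRDT overlapped between the breeds, -0.44 (SE 0.20, adjusted p 0.152). MYBL1 overlapped too and its difference was the smallest, -0.07 (95% interval -0.44 to 0.31, adjusted p 0.806).

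At 120 days the differences ran over a narrower range, from -0.61 to -0.37, with a median of -0.44 against 0.00 over all genes. BRDT had the largest, -0.61 (SE 0.14, adjusted p 0.0457), and its 53.23 to 55.85 FPKM in Lb lay below the 69.03 to 88.35 FPKM of Hb. Its adjusted p ranged from 0.00183 to 0.152 over 15 alternatives and was under 0.05 in 5. It was 0.0651 without Hb1, 0.152 without Hb3, 0.122 without Lb1, 0.147 without Lb2 and 0.149 without Lb3. It was also over 0.05 with the replicate block (0.11), limma on log2(FPKM + 0.1) (0.13) and log2(FPKM + 1) (0.0679), library sizes only (0.0545) and no filter (0.0507). TAF7L came next at -0.52 (SE 0.18, adjusted p 0.127), followed by TCFL5 at -0.47 (SE 0.15, adjusted p 0.101) and MYBL1 at -0.44 (SE 0.17, adjusted p 0.156). SOX30 differed by -0.39 (SE 0.14, adjusted p 0.144) and CREM by -0.37 (SE 0.14, adjusted p 0.15). Under the alternatives TCFL5 came under 0.05 in 2 of 15 (0.0244 to 0.281), and MYBL1 and CREM in 1 each (0.0498 to 0.364 and 0.0397 to 0.425). On the scale of normalised counts RFX2 was the gene whose breeds overlapped, since Hb2 lay among the Lb libraries, while in FPKM TAF7L overlapped too (Hb1 14.90, Lb3 15.06). RFX2 differed by -0.38 (SE 0.25, adjusted p 0.356). No 95% interval of the 7 genes reached a log2 difference of -1 at 120 days, the lowest bound being -0.95. At 30 days the intervals of RFX2, SOX30 and TAF7L did, with lower bounds of -1.09, -1.22 and -1.15. A scaling on FPKM + 0.1 moved the median of all genes in Hb vs Lb to 0.12 and the split called higher and lower from 432 and 196 to 583 and 152, and with FPKM + 1 the split was 366 and 94. The differences of the 7 genes stayed below 0 in all 15 alternatives at 120 days, and at 30 days in all except MYBL1 without La2, where it was 0.0031.

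**Figure D3:**
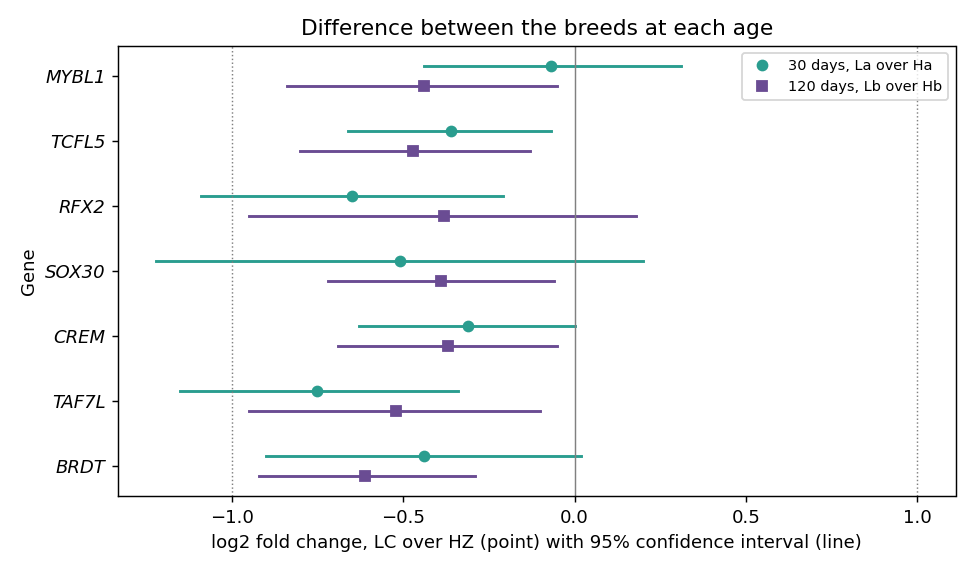
Log2 difference of LC from HZ (points) with its 95% confidence interval (lines) for the 7 regulators, at 30 days (circles) and 120 days (squares); dotted lines mark a difference of 1 in either direction. All 14 points lie below 0, from -0.75 to -0.07 at 30 days and from -0.61 to -0.37 at 120 days, and the point of MYBL1 at 30 days moved to 0.0031 without La2.

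Whether the change with age differed between the breeds was tested by the interaction of breed and age over all 12 libraries. The interaction, as the change in LC minus that in HZ in log2, was called by edgeR for 0 of the 7 genes, where 5.14% of 17332 genes were called. There were 0 of 7 at an unadjusted p under 0.05 as well, against 24.1% of all genes, and 0 by DESeq2. The 890 genes called became 437 without Ha1, 501 without Ha2, 566 without Hb3, 577 without La1, 490 without La2, 461 without La3 and 575 without Lb2. With library sizes only, the split called higher and lower moved from 609 and 281 to 882 and 199. The largest was that of MYBL1, -0.43 (95% interval -0.92 to 0.06, adjusted p 0.267). The others were -0.22 for BRDT, -0.15 for TCFL5, -0.11 for CREM, 0.07 for SOX30, 0.18 for TAF7L and 0.22 for RFX2, and of these only TAF7L kept its sign over all 20 alternatives. The widest interval, that of RFX2, ran from -0.52 to 0.96.

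Genes with similar patterns were sought over the 12 libraries, by the root mean square difference between log2 CPM profiles (counts scaled to the normalised library size), each centred on its own mean. The nearest of 16641 genes with a symbol to SOX30 was BRDT, and the nearest to BRDT was SOX30, at a distance of 0.15. No other pair of the 7 was mutually nearest. TCFL5 and CREM were 0.20 apart, ranking 21 and 20 from each other among 17331 genes, and MYBL1 and CREM were 0.22 apart. RFX2 lay 0.43 from both SOX30 and BRDT, and 1.22 or more from MYBL1, TCFL5 and CREM. TAF7L lay 1.45 or more from every other member. Genes near MYBL1 were COQ3 (0.12) and GKAP1 (0.13). For TCFL5 the 3 nearest genes were TTC25 (0.14), STAG3 (0.15) and DDX20 (0.16). STAG3, a meiotic cohesin subunit, stood at 27.1 ± 2.81 FPKM in Ha and 221 ± 18.4 FPKM in Hb (SD, n = 3). For RFX2 they were SH3D21 (0.24), HDAC11 (0.25) and WDR66 (0.27). After BRDT, SOX30 was nearest to LRRC36 (0.21) and ROPN1L (0.22). BRDT was next nearest to TSGA10 and WDR64 (both 0.21). For CREM they were ATXN2L, CCDC60 and CCDC113 (all 0.14). The genes nearest to TAF7L, USP24, ISCA1 and HAUS8, were each 0.21 away. This distance ranks patterns by size of change as well as by direction.

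Most of the regulators have relatives in their gene families, 19 of which were listed. BRD3 was not analysed here, SOX4 was listed at 0 in all 12 libraries, and 17 were tested with age. In HZ 5 of 17 were called higher and 2 lower, and in LC the numbers were also 5 and 2, so the number called higher was close to the 28.2% and 27.5% of all genes. Of all genes, 23.2% were called lower in HZ and 20.1% in LC. The median log2 fold change of the relatives was 0.05 in HZ and 0.11 in LC. The 5 were RFX4, RFX1, RFX5, ATF1 and SOX6, and the 2 were SOX8 and SOX13. Among those not called in either breed, MYB, MYBL2, RFX3, RFX7, CREB1, TAF7, BRD2, SOX5 and SOX9 lay between -0.84 and 0.89. Under the alternatives the number called lower ranged from 1 to 6 in HZ and from 1 to 3 in LC, and the number called higher from 3 to 5 in each.

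RFX4, another winged-helix factor, stood at 0.92, 0.76 and 0.65 FPKM in Ha (0.777 ± 0.136, SD, n = 3) and at 106.9, 70.24 and 96.09 FPKM in Hb (91.1 ± 18.8, SD, n = 3). In LC it stood at 0.61, 0.62 and 0.49 FPKM in La (0.573 ± 0.0723, SD, n = 3) and at 68.37, 69.10 and 61.63 FPKM in Lb (66.4 ± 4.12, SD, n = 3). The ages were far apart in both breeds, and Hb2 was again the lowest of its group. Its log2 fold changes were 7.37 in HZ (SE 0.31, adjusted p 2.99e-06) and 7.27 in LC (SE 0.16, adjusted p 3.54e-08), larger than those of RFX2. At 120 days RFX2 and RFX4 overlapped in FPKM in both breeds. SOX6 rose by 3.38 in HZ (SE 0.24, adjusted p 2.24e-05) and 3.53 in LC (SE 0.15, adjusted p 3.03e-07), from 0.573 ± 0.17 FPKM in Ha to 6.49 ± 0.80 FPKM in Hb (SD, n = 3). ATF1, a relative of CREM, changed by 3.99 in HZ (SE 0.53, adjusted p 0.00045) and 3.39 in LC (SE 0.80, adjusted p 0.00512). Its libraries at 30 days varied widely, with La2 at 0 FPKM and La1 at 0.68 FPKM.

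The smaller changes of the relatives depended on the scale. RFX1 changed by 1.57 in HZ and 1.28 in LC, and RFX5 by 1.45 and 1.41. SOX8 changed by -2.93 and -1.81, and SOX13 by -1.21 and -1.29. With limma on log2(FPKM + 1) none of these 4 genes passed the fold threshold, at 0.90 and 0.83 for RFX1, 0.86 and 0.9999 for RFX5, -0.50 and -0.40 for SOX8, and -0.83 and -0.95 for SOX13. With limma on log2(FPKM + 0.1), RFX5 in HZ (0.94) and RFX1 in LC (0.95) also missed it, and SOX13 in HZ did so without Hb1 (-0.94). Between the breeds, MYBL2 was the 1 relative of 17 called lower in LC at 30 days, near the 4.01% of all genes, -1.04 (SE 0.22, adjusted p 0.0139). It lost the call with limma on log2(FPKM + 1) (-0.97) and without Ha1 (-0.97), Ha2 (-0.88), La2 (-0.96, adjusted p 0.0557) or La3 (-0.99, adjusted p 0.0597), and its adjusted p ranged from 3.1e-05 to 0.0597. At 120 days edgeR called 0 of 16 (3.85% of all genes), with 2 at an unadjusted p under 0.05 (25.5% of all genes) and 0 by DESeq2.

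Set over the FPKM of relatives, MYBL1, RFX2, CREM and TAF7L each rose with age without overlap in both breeds. MYBL1 over MYB and MYBL2 stood at 0.0649, 0.056 and 0.0846 in Ha and at 1.28, 0.786 and 0.903 in Hb. In LC this ratio was 0.127 ± 0.0197 in La and 0.514 ± 0.106 in Lb (SD, n = 3). RFX2 over RFX1 and RFX3 moved from 0.297 ± 0.0366 in Ha to 9.10 ± 1.87 in Hb, and from 0.171 ± 0.0452 in La to 7.38 ± 1.11 in Lb (SD, n = 3). CREM over CREB1 and ATF1 moved from 1.47 ± 0.147 in Ha to 6.39 ± 0.394 in Hb, and from 1.03 ± 0.0349 in La to 6.59 ± 1.58 in Lb (SD, n = 3). TAF7L over TAF7 stood at 1.13, 0.91 and 1.44 in Ha and at 2.11, 1.88 and 1.72 in Hb. In LC it stood at 0.943, 0.553 and 0.708 in La and at 1.10, 1.31 and 0.949 in Lb. The ratio of TAF7L to TAF7 thus separated the ages where TAF7L alone did not, by log2 changes of 0.74 in HZ and 0.63 in LC. In LC this separation was narrow, with La1 at 0.943 and Lb3 at 0.949, and the share of all genes with such a separation is not given here. TAF7 itself changed by -0.61 in HZ (adjusted p 0.0173) and -0.30 in LC (adjusted p 0.119), and neither TAF7 nor TAF7L was called in either breed.

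Cofactors and testis types of general transcription factors were called higher in 2 of 5 cases with age in each breed. This was not far from the 28.2% (HZ) and 27.5% (LC) of all genes. Both edgeR and DESeq2 called 0 of 5 lower, where edgeR called 23.2% (HZ) and 20.1% (LC) of all genes lower. KIF17 was not analysed here. The 2 were GTF2A1L, the germ cell form of a TFIIA subunit, at 5.35 in HZ and 4.99 in LC, and FHL5, known as ACT, the coactivator of CREM, at 4.75 and 4.03. FHL5 stood at 0.84, 0.41 and 0.32 FPKM in Ha and at 24.68, 15.84 and 19.29 FPKM in Hb, so its ages did not overlap. TAF4B, TAF9B and TBPL1 were not called in either breed. The median of the list was 0.54 in HZ and 0.43 in LC. Between the breeds edgeR and DESeq2 called 0 of 5 at each age, where edgeR called 7.62% of all genes at 30 days and 3.85% at 120 days. At an unadjusted p under 0.05 there was 1 at 30 days (36.4% of all genes) and 0 at 120 days (25.5%).

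Genes known as targets of these regulators in mouse were read from the same fits. Of piRNA genes known as targets of A-MYB, 5 of 7 tested were called higher in HZ and 6 of 7 in LC, with medians of 2.68 and 2.95. For this and the other target lists, the share of all genes called higher was 28.2% in HZ and 27.5% in LC. MAEL changed by 3.13 (SE 0.15) in HZ and 3.71 (SE 0.12) in LC. PIWIL1, which binds pachytene piRNAs, changed by 5.83 (SE 0.31) and 6.49 (SE 0.12). TDRD12 was called in LC alone, at 1.08 (SE 0.16), and missed the threshold there in 4 of 15 alternatives: without Lb3 (0.91), with library sizes only (0.92), and with limma on log2(FPKM + 0.1) (0.78) and log2(FPKM + 1) (0.71). Its interaction was 0.43 (adjusted p 0.404). PIWIL1 stood at 2.66, 2.96 and 1.42 FPKM in Ha and at 97.70, 99.59 and 84.81 FPKM in Hb. Of cilium and spermatid genes known as RFX targets, 5 of 7 were called higher in each breed, with medians of 2.18 and 2.49, and SPAG6, a protein of the axoneme, changed most, by 7.66 (SE 0.31) in HZ and 7.78 (SE 0.14) in LC. GTF2A1L and FOXJ1 are on this list and on another each. Of spermatid genes known as CREM targets, 8 of 8 were called higher in each breed, with medians of 11.05 and 9.17, or 10.24 and 9.05 with genes at the floor of 3 counts set at their bound. PRM1, a protamine, stood at 2.11, 3.53 and 2.80 FPKM in Ha and at 3392.91, 4078.05 and 5432.67 FPKM in Hb. ODF1, of the sperm tail, changed by 11.06 (SE 0.24) in HZ and 10.04 (SE 0.31) in LC. The fold changes of CREM targets were thus larger than that of CREM, 3.38 in HZ and 3.28 in LC. Binding by the regulators was not measured. TNP1, TNP2, PRM1, PRM2, ODF1 and AKAP4 are also among the spermatid markers used below, and PIWIL1 is also among the spermatocyte markers. The target lists and those marker lists are therefore not separate evidence.

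At 30 days 2 of 7 piRNA genes and 1 of 7 RFX targets were called lower in LC, against 4.01% of all genes. FOXJ1 differed by -2.09 (SE 0.36, adjusted p 0.00724), from 0.52, 0.64 and 0.62 FPKM in Ha to 0.16, 0.16 and 0.09 FPKM in La, and its adjusted p ranged from 0.000417 at the lowest to 0.0312 over 15 alternatives. It missed the fold threshold with limma on log2(FPKM + 1) (-0.49). TDRD12 differed by -1.05 (SE 0.13, adjusted p 0.00269, range 2.06e-10 to 0.016) and missed the threshold without Ha1 (-0.93) and narrowly with limma on log2(FPKM + 1). PIWIL1 differed by -1.21 (SE 0.29, adjusted p 0.0234, range 0.00164 to 0.0772) and was called in 8 of 15 alternatives, also losing the call with limma on log2(FPKM + 1) (-0.75) and the replicate block (adjusted p 0.0532). Its adjusted p was 0.0768 without Ha1, 0.0772 without Ha2, 0.0721 without La1, 0.0716 without La2 and 0.074 without La3. Of the CREM targets edgeR called 0 of 5 at 30 days (7.62% of all genes), with 1 at an unadjusted p under 0.05 (36.4% of all genes) and 0 by DESeq2. Their median was 0.73 with 1 below 0 (49.8% of all genes). At 120 days AKAP4, a sperm tail anchor protein, was the 1 of 8 CREM targets called lower in LC, -1.10 (SE 0.21, adjusted p 0.0283, range 3.43e-05 to 0.115). All 8 differences were below 0 there, with a median of -0.76, where 1.2% of all genes were called lower and 49.7% were below 0. The adjusted p of AKAP4 was 0.0934 without Hb3, 0.115 without Lb2 and 0.0988 without Lb3. It was also over 0.05 with all 12 libraries in 1 fit (0.0842), limma on log2(FPKM + 0.1) (0.052) and the replicate block (0.0766), so the call held in 9 of 15 alternatives. Of the piRNA genes edgeR called 0 of 8 at 120 days (3.85% of all genes), with 3 at an unadjusted p under 0.05 (25.5% of all genes) and 0 by DESeq2. Of the RFX targets edgeR called 0 of 7 there (3.85% of all genes), with 0 at an unadjusted p under 0.05 (25.5% of all genes) and 0 by DESeq2.

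Other regulators of meiosis were called higher in 4 of 8 cases and lower in 1 of 8 in HZ (28.2% and 23.2% of all genes), with a median of 1.65. In LC 5 of 8 were called higher (27.5% of all genes) and 0 lower by edgeR and DESeq2 (20.1% of all genes by edgeR), with a median of 3.84. SOHLH2, MEIOSIN and PRDM9 were not analysed here. ZNF541 and KCTD19, partners in a histone deacetylase complex of spermatocytes, were the most significant in HZ. ZNF541 changed by 3.43 (SE 0.25) in HZ and 3.74 (SE 0.15) in LC, and KCTD19 by 7.59 (SE 0.63) and 9.17 (SE 0.24). KCTD19 stood at 1.23, 1.35 and 0.27 FPKM in Ha, with Ha3 the lowest, and at 144.93, 91.90 and 143.80 FPKM in Hb. SOHLH1, a factor of spermatogonia, was the 1 called lower in HZ, -1.12 (SE 0.20), and missed the threshold without Hb1 (-0.95).

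Between the breeds at 30 days, 3 of 7 regulators of meiosis were called lower in LC (4.01% of all genes) and all 7 differences were below 0 (49.8% of all genes), with a median of -0.76. KCTD19 differed by -2.21 (SE 0.60, adjusted p 0.0352, range 0.00276 to 0.11), HSF5 by -2.18 (SE 0.51, adjusted p 0.021, range 0.00303 to 0.0739) and CTCFL by -1.84 (SE 0.49, adjusted p 0.0324, range 0.00267 to 0.104). None of these calls held over all leave-outs. KCTD19 and CTCFL were called in 7 of 15 alternatives and HSF5 in 10. With limma on log2(FPKM + 1) all 3 calls were lost and the differences were -0.65, -0.63 and -0.27 for KCTD19, CTCFL and HSF5. KCTD19 and CTCFL also lost theirs with limma on log2(FPKM + 0.1) (adjusted p 0.0884 and 0.0577) and with the replicate block (0.0885 and 0.0801). The adjusted p of KCTD19 was 0.1 without Ha1, 0.105 without Ha2, 0.0853 without La1, 0.11 without La2 and 0.0989 without La3. That of HSF5 was 0.0739 without Ha1, 0.0531 without Ha2, 0.0693 without La1 and 0.061 without La3. That of CTCFL was 0.0826 without Ha1, 0.102 without Ha2, 0.0845 without La1, 0.104 without La2 and 0.0936 without La3. At 120 days edgeR called 0 of 8 (3.85% of all genes), with 4 at an unadjusted p under 0.05 (25.5% of all genes) and 0 by DESeq2. The median there was 0.22.

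Other regulators of spermatids were called higher in 9 of 11 cases in HZ and 8 of 11 in LC, against 28.2% and 27.5% of all genes, with medians of 3.18 and 4.03. HMGB4, an HMG box protein, had at most 3 counts in each library at 30 days and was at least 582-fold higher at 120 days in HZ and at least 267-fold in LC. YBX2, which binds stored mRNA in germ cells, changed by 7.92 (SE 0.27) in HZ and 8.33 (SE 0.16) in LC. At 30 days 2 of 9 were called lower in LC (4.01% of all genes), FOXJ1 as above and NUTM1, -1.19 (SE 0.17, adjusted p 0.00392, range 1.14e-07 to 0.0201). NUTM1 missed the fold threshold with limma on log2(FPKM + 1) (-0.80). At 120 days all 11 differences were below 0 (49.7% of all genes), with a median of -0.50, and 1 was called lower (1.2% of all genes). This was SPZ1, -1.04 (SE 0.23, adjusted p 0.0432, range 0.000775 to 0.142), which had at most 2 counts in each library of Ha and was at least 623-fold higher in Hb. Its adjusted p was 0.088 without Hb1, 0.132 without Hb3, 0.102 without Lb1, 0.131 without Lb2 and 0.142 without Lb3. The call was also lost with library sizes only (-0.97), limma on log2(FPKM + 0.1) (-0.88), limma on log2(FPKM + 1) (-0.82) and the replicate block (adjusted p 0.0966), and held in 6 of 15 alternatives.

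Marker genes of the cell types that express these regulators moved with the same comparisons, and their part in the differences was not tested. The summed CPM of 8 spermatocyte markers was 31.7, 35.6 and 19.9 in Ha and 783, 676 and 651 in Hb. In LC it was 16.1, 14.1 and 12.7 in La and 502, 485 and 494 in Lb. LC was thus below HZ in every library at both ages. PIWIL1 was the most abundant of these markers in each group, with 27.5% of their sum in Ha, 64.7% in Hb, 24.2% in La and 62.6% in Lb. With age 8 of 8 were called higher in each breed (28.2% and 27.5% of all genes). Between the breeds 4 of 8 were called lower in LC at 30 days (4.01% of all genes), with a median of -0.89. The median was -0.39 at 120 days, with 7 of 8 below 0 (49.7% of all genes). The summed CPM of 10 spermatid markers was 4.99, 5.54 and 6.48 in Ha, 8.86, 7.73 and 4.41 in La, 6520, 5790 and 8230 in Hb, and 4190, 3450 and 3150 in Lb. PRM1 was the most abundant of these in each group except Ha, where it was SPACA1. TNP1 and SPACA3 were at or under 3 counts in each library of Ha and La, as was ACRV1 in Ha. The summed CPM of 11 spermatogonium markers was 346 ± 35.8 in Ha, 831 ± 22.3 in Hb, 225 ± 4.62 in La and 665 ± 32.1 in Lb (SD, n = 3). ZBTB16 was the most abundant of them at 30 days and DDX4 at 120 days in both breeds. DDX4 accounted for this rise in HZ and for most of it in LC, from 20.6 to 570 CPM in HZ and from 13.1 to 391 CPM in LC. In HZ 3 of 11 were called higher (28.2% of all genes) and 6 lower (23.2%), with a median of -1.01. In LC 4 were called higher (27.5%) and 5 lower (20.1%), with a median of -0.53. NANOS2 was at or under 3 counts in each library of Hb and Lb. No marker was at 0 in all libraries of a group.

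The summed somatic markers stood lower at 120 days than at 30 days in both breeds. The summed CPM of 10 peritubular and stromal markers, led by COL3A1 in each group, was 4610 ± 113 in Ha, 405 ± 182 in Hb, 6900 ± 716 in La and 2890 ± 277 in Lb (SD, n = 3). With age 8 of these 10 were called lower in HZ (23.2% of all genes) and 5 in LC (20.1%). In LC 1 of 10, ACTA2, was called higher (27.5% of all genes), at a mean of 107 CPM in La and 282 CPM in Lb. At 120 days 5 of 10 of them were called higher in LC than in HZ, against 2.65% of all genes. Those of 8 Sertoli cell markers, led by INHA at 30 days and CLDN11 at 120 days, came to 1380 ± 247 in Ha, 484 ± 87.9 in Hb, 2920 ± 286 in La and 666 ± 77.4 in Lb (SD, n = 3). The sum of 7 Leydig cell markers, led by CYP17A1 in each group except Hb (INSL3), was 9470 ± 675 in Ha, 11400 ± 2180 in La and 5140 ± 2170 in Lb (SD, n = 3). In Hb it was 4060, 331 and 268, with Hb1 far above the others. The sum of 5 endothelial markers, led by VWF in each group, was 655 ± 34.5 in Ha, 221 ± 72.5 in Hb, 726 ± 87.8 in La and 364 ± 117 in Lb (SD, n = 3). That of 5 macrophage markers, led by CSF1R in each group except Ha (CD163), was 110 ± 12.2 in Ha, 16.1 ± 4.86 in Hb, 115 ± 7.84 in La and 31.7 ± 9.06 in Lb (SD, n = 3).

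Each regulator was also set over the summed germ cell markers, as a description chosen after the values were seen. The share of all genes whose ratios overlap is not given here, so the counts of overlap below are descriptions only. Over the spermatocyte markers at 120 days, the log2 ratios of Hb and Lb overlapped for 7 of 7 genes, and the mean of Lb minus that of Hb lay between -0.14 and 0.10. PIWIL1 made up 64.7% of this sum in Hb and 62.6% in Lb, and itself differed by -0.51 (SE 0.13, adjusted p 0.0568). This ratio therefore reflects PIWIL1 more than the other markers. Over the spermatogonium markers the ratios of Hb and Lb overlapped for 6 of 7, with differences from -0.32 to -0.08. This sum was mostly DDX4, and the 10 spermatogonium markers tested between Hb and Lb had a median of 0.18 with 4 below 0, so this ratio reflects DDX4 more than the list. Over the spermatid markers they overlapped for 5 of 7, with differences from 0.28 to 0.52, all higher in Lb. The spermatid sum had a mean of 6850 CPM in Hb and 3600 CPM in Lb, so this direction reflects the sum as well as the regulators. For RFX2 over the spermatocyte markers the values were -0.20, -0.86 and 0.02 in Hb and -0.09, -0.01 and -0.64 in Lb. At 30 days the mean over the spermatocyte markers was higher in La than in Ha for 7 of 7 genes, by 0.24 to 0.92, without overlap for MYBL1 and TCFL5. The spermatocyte sum had a mean of 29.1 CPM in Ha and 14.3 CPM in La. These ratios therefore reflect the lower sum in La as well as the regulators, and the share of all genes with a higher ratio is not given here. Over the spermatogonium markers at 30 days the differences ran from -0.14 to 0.55, and 4 of 7 overlapped. Over the spermatid markers, where sums were low at 30 days, all were lower in La, and 5 of 7 overlapped. The spermatid sum had a mean of 5.67 CPM in Ha and 7.0 CPM in La, so this direction reflects the sum as well as the regulators.

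Long noncoding RNAs near the genes were read from the separate table of 10706 transcripts, all of which have a position. Within 10 kb of a member there were 3 transcripts, all beside MYBL1, and none overlapped a member's span. They had at most 9 counts in a library, too few to be tested, so edgeR called 0 with age and no p-value was available from it or another tool. Within 50 kb there were 5, again all beside MYBL1. The assembled transcript MSTRG.6445.1, on the forward strand of chromosome 4 at 68200717 to 68201523, lies 41204 bases from MYBL1. It had 1, 0 and 1 counts in Ha and 114, 119 and 128 counts in Hb. In LC it had 2, 0 and 0 counts in La and 123, 100 and 84 counts in Lb. Low at 30 days in all 6 libraries, it was at least 36-fold higher in Hb (adjusted p 0.000309) and at least 25-fold higher in Lb (adjusted p 0.000318). Calls of this kind were common, since 38.6% of 2909 lncRNA transcripts tested were called higher with age in HZ and 41.8% of 2988 in LC. Between Hb and Lb it differed by -0.35 (SE 0.27, adjusted p 0.562) and was not called.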

How the data were processed

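The authors sequenced testis RNA of 12 boars and, by the submitters' processing notes, used fastp 0.18.0, Bowtie2 2.2.8 against ribosomal reads, HISAT2 2.1.0 against Sscrofa11.1, and StringTie 1.3.4. The deposited tables give an estimated count (not normalized) and an FPKM value with 2 decimals per coding gene and per lncRNA transcript. The tool that made the deposited estimated counts is not named in the sources used here, and 29.4% to 33.6% of them per library are not whole, so they were rounded. The deposited assembly gives exon positions of the assembled lncRNAs, and RefSeq gene spans gave the others.

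The 7 regulators and the lists were chosen with earlier results of these data known. Each of the 4 comparisons used its 6 libraries, a filter by filterByExpr (minimum count 10) and TMM factors. P-values came from edgeR 4.0.16 run under R 4.3.3, by its quasi-likelihood F test. All coding genes were fitted together, lncRNAs apart, and p-values were adjusted by Benjamini-Hochberg. All 7 regulators passed the filter in each comparison. Second groups are over first. The SE is the absolute log2 fold change over the square root of the F statistic, and 95% intervals use the t quantile at the total degrees of freedom. Groups with at most 3 counts in each library are at the floor, and folds against them are lower bounds with no SE. Other computations used Python 3.11.15, numpy 2.4.6, pandas 2.3.3, scipy 1.17.1 and matplotlib 3.10.9, and log2 CPM used a prior count of 2.

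Named genes are the 7 regulators, the relatives tested, the 3 genes nearest in pattern to each regulator, the most abundant marker of each cell type in each group and lncRNAs near a regulator that were called. From each other list they are, for Ha vs Hb, the 2 most significant called genes higher and the 2 lower, and all genes called between the breeds. Other names were chosen after their values were seen. Some planned results are not reported here. Alternatives were DESeq2 1.42.0, RLE factors, library sizes only, no filter, 10 counts in every library of a group, 1 fit of all 12 libraries, limma 3.58.1 on log2(FPKM + 1) and log2(FPKM + 0.1), the replicate number as a block, and leaving out each library. The alternatives for list genes were added after the data were seen. The code was tested on simulated data. Sequences of the genes were not used here.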

Additional observations from a re-analysis of the deposited data

Results flagged for a closer look

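Among 62 listed genes tested around the 7 regulators, 6 (9.68%, against 5.14% of all genes) had a change with age that differed between the breeds by the test of the interaction, given as the change in LC minus that in HZ in log2. Replicate groups of 3 are too small for a test of outlying samples.

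MYBL2 differed by 1.49 (adjusted p 0.0134), with 25.28, 28.05 and 15.54 FPKM in Ha, 8.81, 11.86 and 11.52 in Hb, 12.52, 9.78 and 10.41 in La, and 15.34, 17.50 and 15.86 in Lb. It was lower with age in HZ, -0.61, and higher in LC, 0.89. SOHLH1 differed by 1.26 (adjusted p 0.0126), with -1.12 in HZ and 0.15 in LC. DMRT1 differed by 1.13 (adjusted p 0.0154), with -0.73 in HZ and 0.42 in LC. These 3 were called in all 20 alternatives, with adjusted p from 9.82e-05 to 0.036 for MYBL2, 3.58e-05 to 0.0384 for SOHLH1 and 0.000185 to 0.0423 for DMRT1.

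CTCFL differed by 2.92 (adjusted p 0.0336) and was called in 13 of 20 alternatives, with adjusted p from 0.00121 to 0.0806. Its adjusted p was 0.0719 without Ha1, 0.0806 without Ha2, 0.0668 without La1, 0.0786 without La2, 0.0742 without La3, 0.0715 without Lb2 and 0.0543 without Lb3. NUTM1 differed by 1.02 (adjusted p 0.0186) and was called in 13 of 20, with adjusted p from 0.00199 to 0.0489. It missed the fold threshold without Ha2 (0.92), Hb2 (0.94), Lb2 (0.999) and Lb3 (0.99), and with DESeq2 and RLE factors (0.97 each) and limma on log2(FPKM + 1) (0.80). PRM1 differed by -1.83 (adjusted p 0.0322) and was called in 9 of 20, with adjusted p from 0.000538 to 0.0913. The replicate block (adjusted p 0.0594) and limma on log2(FPKM + 0.1) (0.0788) ended the call, as did leaving out any library except Hb1, Hb2 and La3. The adjusted p was 0.0913 without Ha1, 0.0521 without Ha2, 0.0592 without Ha3, 0.0648 without Hb3, 0.0836 without La1, 0.0791 without La2, 0.05 without Lb1, 0.0675 without Lb2 and 0.0595 without Lb3. Causes were not tested.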

How the results depend on the processing

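The number of regulators called stayed at 6 with age in each breed (Ha vs Hb, La vs Lb) and at 0 for the interaction and for the breeds at either age under every alternative with the fold threshold. With an adjusted p under 0.05 at any fold it was 2 for the breeds at 30 days and 1 at 120 days, because that setting drops the fold threshold. Within 50 kb in place of 10 kb, 1 lncRNA was called with age in HZ and 1 in LC, because more transcripts are counted. Small differences that were not called changed sign, and the cause was not tested. With library sizes only, the log2 value was -0.19 for TAF7L in Ha vs Hb. In the interaction it was then 0.0050 for TCFL5 and 0.0554 for CREM. With limma on log2(FPKM + 0.1), TAF7L had -0.39 with age in HZ and -0.0024 in LC, and the interaction was 0.15 for TCFL5 and 0.0353 for CREM. With limma on log2(FPKM + 1), TAF7L had -0.37 with age in HZ and -0.0032 in LC, and the interaction was 0.084 for TCFL5, -0.11 for SOX30 and 0.0044 for CREM. Leaving out 1 library at a time gave -0.0938 to 0.22 for TAF7L in Ha vs Hb, the lowest without Hb2, and -0.15 to 0.0031 for MYBL1 in Ha vs La. In the interaction it gave -0.0129 to 0.42 for RFX2, -0.0765 to 0.30 for SOX30, -0.20 to 0.0493 for CREM and -0.32 to 0.0355 for BRDT. Counts of all genes called that moved by over 1.5 times were, for the breeds at 120 days, 628 against 1153 with DESeq2, 1258 with all 12 libraries in 1 fit and 154 with the replicate block. They were, for the breeds at 30 days, 1192 against 502 with limma on log2(FPKM + 1), and, for the interaction, 890 against 1364 with DESeq2. Genes called higher with age fell from 4666 to 2808 in HZ and from 4574 to 2918 in LC with limma on log2(FPKM + 1). The CREM ratio to CREB1 and ATF1 changed by 2.12 in HZ and 2.65 in LC in FPKM, and by 2.83 and 3.39 in CPM.

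In the replicate block, which treats libraries of the same number as paired, 6, 6, 0, 0 and 0 regulators were called. The numbers do not pair the libraries by their values. Correlations between libraries of the same number, after each group's mean was removed, ran from -0.022 to 0.053. In Ha vs Hb 3 of 3 libraries correlated best with their own number, and 0 of 3 in the other comparisons, a hint at most.

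With 3 libraries per group, differences between the breeds under a log2 of about 1 rest on wide intervals, and single libraries decided several calls. SOX30 had 22 to 46 counts in each library of 30 days, and its SE between the breeds there, 0.31, was the largest of the 7. Breed cannot be told apart from anything else that differed between the boars of the breeds.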

Other observations

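Within Hb, library Hb2 was the lowest of the 3 in FPKM for RFX2 (69.52), RFX4 (70.24), KCTD19 (91.90), FOXJ1 (10.48) and SPZ1 (11.93), and the highest for TAF7L (24.35). These genes were picked after their values were seen, and the cause was not tested.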
